A study of Mus musculus with 16 samples.

Results

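Picoxystrobin was compared with its solvent in mouse neural cells. The picoxystrobin libraries at 30, 100 and 300 nM (3 libraries) were set against the libraries of the DMSO control (2 libraries), which makes 5 of the 16 libraries of the series. Picoxystrobin at 1000 nM was left out by the rule that chose the libraries, and it is given only where adding it changes a result. Among the 54658 gene symbols counted, the 9696 with an average over 10 CPM (counts scaled to the depth of the library) in these 5 libraries were tested.

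All 5 libraries came from C17.2α cells, a line derived from the C17.2 neural cells of mouse cerebellum and made to express the thyroid hormone receptor TRα1. The DMSO cells carried the same receptor and grew in the same newborn calf serum, which had been stripped of thyroid hormone with charcoal. RNA was taken 24 h after the compound or the solvent had been added, and picoxystrobin was added here without T3, the active thyroid hormone. Each concentration is 1 library. No source says that the DMSO libraries came from separate cultures, so the p-values measure only the spread between these libraries, which may be technical.

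Picoxystrobin is a strobilurin, a family of agricultural fungicides modelled on natural products of mushrooms. Strobilurins bind the site of complex III (cytochrome bc1) where ubiquinol is oxidised, which stops electrons from passing on to cytochrome c. In mammalian cells a block of the respiratory chain is known to act on the nucleus through the integrated stress response, in which phosphorylated eIF2α lowers general translation while the factor ATF4 induces genes of amino acid synthesis. TRα1 without its ligand is held on DNA with corepressors, and T3 turns it into an activator of targets such as Hr and Klf9.

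The GC content of transcripts enters most of the results below, because the change from DMSO followed it. GC content is the share of G and C bases, here in the longest transcript of a gene in GENCODE M21 (GRCm38). The first 90 coding bases of 4 genes are shown to give an idea of the sequences at the ends of the change: Tpt1 and Ptms had the largest falls of the coding genes before any correction, and Rpl22l1 and Hmgn5 the largest rises. Each runs from the start codon, 5′ to 3′, with G and C in capitals.
Tpt1: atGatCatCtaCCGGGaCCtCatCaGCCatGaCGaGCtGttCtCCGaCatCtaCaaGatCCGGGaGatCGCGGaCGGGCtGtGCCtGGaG
Ptms: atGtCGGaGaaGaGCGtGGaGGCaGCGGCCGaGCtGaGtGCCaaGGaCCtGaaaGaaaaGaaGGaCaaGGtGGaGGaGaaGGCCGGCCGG
Rpl22l1: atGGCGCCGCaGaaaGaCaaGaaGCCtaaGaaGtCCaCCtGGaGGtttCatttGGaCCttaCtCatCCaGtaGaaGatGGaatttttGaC
Hmgn5: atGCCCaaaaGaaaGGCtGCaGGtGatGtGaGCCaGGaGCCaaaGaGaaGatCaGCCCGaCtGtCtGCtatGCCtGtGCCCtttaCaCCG

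The bases of Tpt1 lie on the plus strand in 2 exons, at chr14:75845429-75845456 and chr14:75845617-75845678. Those of Ptms lie on the minus strand, at chr6:124917560-124917604 and chr6:124914945-124914989. Those of Rpl22l1 lie on the plus strand, at chr3:28805535-28805543 and chr3:28806500-28806580. Those of Hmgn5 span 4 coding blocks of the minus strand, at chrX:109013252-109013266, chrX:109011422-109011445, chrX:109010857-109010886 and chrX:109010587-109010607. Over the whole coding sequence the GC content was 54.8% for Ptms and 46.3% for Tpt1, against 39.9% for Rpl22l1 and 44.3% for Hmgn5. Over the longest transcript it was 65.3% for Ptms, 53.1% for Tpt1, 43.5% for Rpl22l1 and 40.7% for Hmgn5. The genes that fell were thus the richer in G and C on both measures.

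The 5 libraries held between 14882735 and 18188099 counts. The second DMSO library had the same count in every gene as the library labelled azoxystrobin 100 nM (0 genes differed), while all other pairs of libraries in the series differed in at least 22355 genes, so either label may belong to it. The calls rested on the DMSO libraries. Without the second, 2317 genes were called in place of the 3716 reported below, and 969 in place of 1648 after correction for GC content. Without the first, 0 and 1 were called by edgeR, where the remaining control was assumed to vary like the picoxystrobin libraries, with 2661 and 1884 genes at an unadjusted p under 0.05. Without the library at 100 nM the calls numbered 2219 and 699, and without that at 300 nM they numbered 3368 and 1088. With the library at 1000 nM added, edgeR called 0 genes with or without the correction, with 1276 and 1377 genes at an unadjusted p under 0.05. In each of these fits at least 99.7% of the genes called from the 5 libraries kept their direction. The fits share most of their libraries, so this is no independent check. A rise or a fall named below is therefore a call from these 5 libraries.

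**Figure D1:**
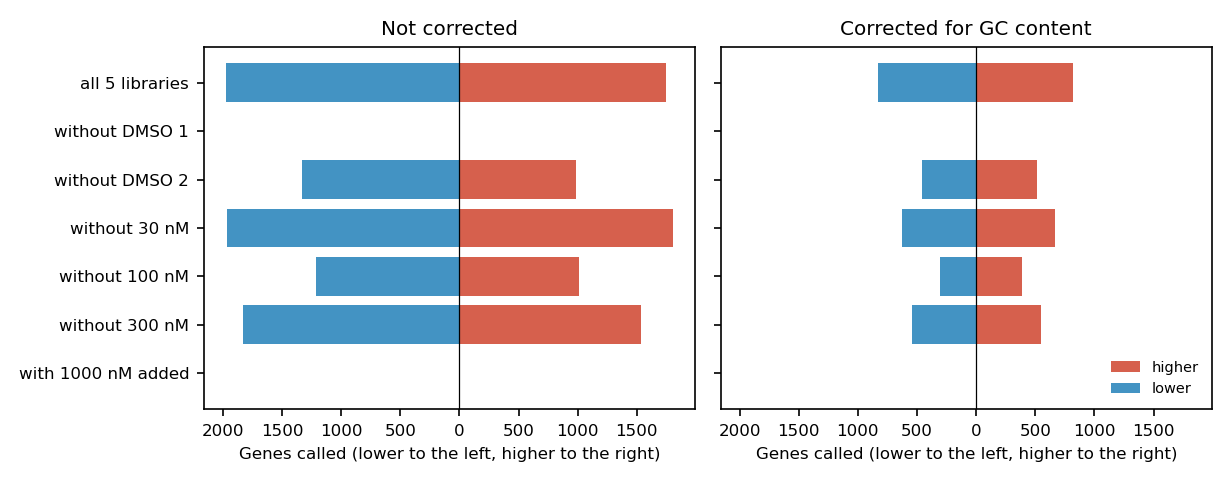
Genes called by edgeR (adjusted p under 0.05) from all 5 libraries, without each library in turn, and with picoxystrobin at 1000 nM added. Bars to the left count genes lower with picoxystrobin than in DMSO and bars to the right genes that were higher, before (left panel) and after (right panel) correction for GC content; the bars are empty or hold 1 gene without DMSO 1 and with 1000 nM added.

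The test had 1 factor, exposed or DMSO, and the 3 concentrations served as the replicates of the compound. The spread within the exposed group thus includes any change with concentration, and no concentration was tested by itself. Before any correction, 3716 of 9696 genes were called by edgeR's quasi-likelihood test at an adjusted p under 0.05. Picoxystrobin raised 1744 genes (18%) and lowered 1972 (20.3%). All 3 picoxystrobin libraries lay above both DMSO libraries for 33.4% of the genes and below both for 34.1%. The distance from the DMSO mean grew with concentration. At 30 nM, 62 genes were over 1.5-fold higher and 166 over 1.5-fold lower. At 100 nM these numbers were 89 and 214, and at 300 nM they were 616 and 805. The DMSO libraries, which lie on either side of their own mean, had 1 such gene each. The SD over genes of the log2 difference from the DMSO mean was 0.258, 0.274 and 0.401 at 30, 100 and 300 nM, and 0.0818 in DMSO. Each DMSO library is part of that mean, which makes its SD and its 1.5-fold count smaller than for a library outside it.

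Genes poor in G and C rose and genes rich in them fell, at all 3 concentrations. In the 613 genes with a GC content under 40%, the median log2 difference from DMSO was 0.22, 0.28 and 0.48 at 30, 100 and 300 nM. In this group 361 genes (58.9%) rose and 3 fell. In the 839 genes with a GC content of 57.5% or more, the median was -0.34, -0.39 and -0.56, where 602 genes (71.8%) fell and 8 rose. Genes between 47.5 and 50% had medians of 0.01 in all 3 libraries, with 144 of 1391 called higher (10.4%) and 114 lower (8.2%). The median GC content was 43% in the genes called higher and 55.7% in those called lower, against 48.8% in all genes tested. Transcripts of the called genes were close to the whole in length, with medians of 3178 and 3580 bases against 3534.

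Across the 9661 genes with a known GC content, which are not independent replicates, the log2 difference from the DMSO mean had a Pearson's r with GC content of -0.634, -0.704 and -0.737 at 30, 100 and 300 nM. The relation was there with either control, at -0.661, -0.698 and -0.728 against the first DMSO library and at -0.541, -0.66 and -0.726 against the second. It also stood between the controls themselves, where the first minus the second DMSO library gave r = 0.404. With no control in it, the difference of 300 nM minus 30 nM gave r = -0.591. In the library of picoxystrobin at 1000 nM r was 0.202, with the sign turned. The relation was not particular to picoxystrobin. Against the same DMSO mean, r was negative in every pyraclostrobin and trifloxystrobin library. It lay between -0.064 (trifloxystrobin at 1000 nM) and -0.39 (trifloxystrobin at 300 nM), and it was -0.224 in azoxystrobin at 1000 nM. Transcript length was only weakly related to the change, with r between -0.145 and -0.0908. The part of library preparation or sequencing in this relation was not tested.

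**Figure D2:**
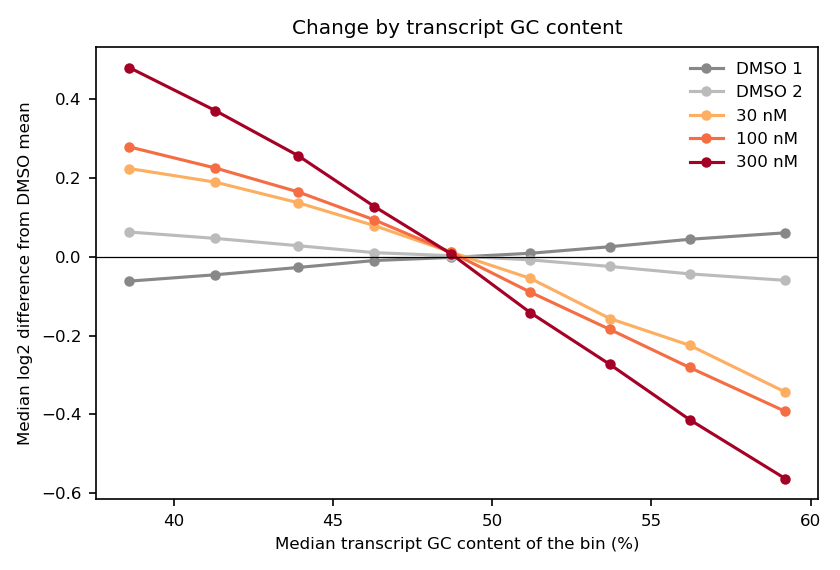
Median log2 difference from the DMSO mean (vertical axis) in 9 groups of genes by transcript GC content (horizontal axis, median of the group in percent), with a line for each library. The lines at 30, 100 and 300 nM run from 0.22, 0.28 and 0.48 in the group poorest in G and C to -0.34, -0.39 and -0.56 in the richest, while the DMSO lines, mirror images by construction, stay within 0.0622 of 0.

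The test was therefore run a second time with the trend of each library on GC content taken out. This removes what follows GC content in a library, whether it comes from the cells or from the measurement. It called 1648 of 9661 genes. Picoxystrobin was higher in 816 of them (8.45%) and lower in 832 (8.61%). Of the 3701 genes with a GC content that were called without the correction, 1053 were called again (28.5% of those, and 63.9% of the corrected calls). All but 1 of them kept their direction, and the exception, Ppp1r14b, was picked out after its values were seen. Of the calls that were lost, 1207 had been higher and 1441 lower, and 595 genes were called only after the correction. All picoxystrobin libraries then lay above both DMSO libraries in 25.4% of the genes and below both in 27.2%. The 1.5-fold counts fell to 42 higher and 28 lower at 30 nM, 47 and 18 at 100 nM, and 226 and 105 at 300 nM.

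The genes left after the correction no longer differed much in GC content, with medians of 50% for those called higher and 48.3% for those called lower. They differed in length. The median transcript measured 1887 bases in the genes called higher and 4629.5 bases in those called lower, against 3534 bases in all genes. When transcript length was corrected together with GC content, 1226 genes were called. Some lists of short or long genes are given below on this scale too, since it moved several of them.

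Sox9 was among the 10 largest falls after the correction for GC content, and Notch1, Adamtsl4, Mbd6 and Ptms were among the 10 largest before it. Sox9, which encodes a transcription factor of neural stem cells and glia (chromosome 11, 112782224 to 112787760), measured 34.9 and 29.6 CPM in the DMSO libraries and 18.1, 19.6 and 16.1 CPM at 30, 100 and 300 nM. The groups did not overlap, and all picoxystrobin libraries were alike. The log2 fold change was -0.84 before and -0.84 after the correction (edgeR after the correction, SE 0.11, adjusted p = 0.00436). Notch1, which encodes a receptor that keeps neural progenitors from differentiating (chromosome 2, 26457903 to 26516663), measured 56.3 and 47.3 CPM in DMSO and 27.7, 32.6 and 21.5 CPM with picoxystrobin. It lay below both controls at each concentration, with a log2 fold change of -0.92 that became -0.60 (SE 0.12, adjusted p = 0.0106). Adamtsl4 encodes a secreted protein of the microfibril matrix. It fell from 22.9 and 23.1 CPM to 13.4, 12 and 9.72 CPM, in order of concentration. Mbd6, of the methyl-CpG binding domain family, fell from 99.7 and 76.5 CPM to 50.3, 44.1 and 38.6 CPM, and Ptms, the precursor of parathymosin, from 142 and 113 CPM to 68.7, 67 and 51.8 CPM. For these 3 genes, all rich in G and C, the log2 fold change shrank with the correction, from -0.98 to -0.57 for Adamtsl4, from -0.99 to -0.50 for Mbd6 and from -1.03 to -0.49 for Ptms, and all 3 remained called.

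Dennd1a, which acts in clathrin-dependent endocytosis as an exchange factor of Rab35, had the largest fall after the correction. It measured 30.4 and 28.3 CPM in DMSO and 18.2, 17.9 and 16.1 CPM with picoxystrobin, without overlap. As its transcript is poor in G and C (37.96%), the log2 fold change widened from -0.76 to -1.08 (SE 0.13, adjusted p = 0.00436). Its gene overlaps 6 others, whose reads may not have been told apart. Cdc42ep2, an effector of the GTPase Cdc42, measured 35.1 and 37.9 CPM in DMSO and 19.5, 19.8 and 18 CPM with picoxystrobin. Its fall was the same at all concentrations and on both scales (log2 fold change -0.94 and -0.89, SE 0.10 and 0.09). Neat1 and Kcnq1ot1 are long nuclear RNAs, the former the scaffold of paraspeckles and the latter an imprinted antisense RNA of the Kcnq1 locus. Neat1 measured 61 and 55.5 CPM in DMSO and 39.2, 36 and 37.9 CPM with picoxystrobin. Kcnq1ot1 measured 30.7 and 30.3 CPM in DMSO against 22.6, 19.7 and 23.4 CPM. Their log2 fold changes after the correction were -0.70 (SE 0.08) and -0.76 (SE 0.09), with an adjusted p of 0.00436 for each. Alkbh6, Spaca6, Ino80e, Pnkd and Ppp2r3d completed the 10 largest falls, with log2 fold changes between -0.72 (Ppp2r3d) and -0.91 (Alkbh6) after the correction.

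The largest rise after the correction was that of Hist1h1c, a gene of linker histone H1 (chromosome 13, 23738808 to 23740367). It measured 11.8 and 14.6 CPM in DMSO and 22.2, 24.3 and 24.6 CPM with picoxystrobin. The groups stood apart and the concentrations did not, with a log2 fold change of 0.85 before and 1.10 after the correction (SE 0.13, adjusted p = 0.00436). Most clustered histone mRNAs end in a stem-loop without a poly(A) tail, and only 2 of the 69 clustered histone genes on the list passed the level of 10 CPM. The other, Hist2h2be, was not called on either scale (adjusted p = 0.154 and 0.791).

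Of the other 9 large rises after the correction, Rps3a1, Rpl26 and Rpl39 are genes of ribosomal proteins, and Rps3a3, Gm14303 and Rps15-ps2 share sequence with such genes. Rps3a1, which encodes a protein of the small ribosomal subunit (chromosome 3, 86137940 to 86142702), measured 114 and 126 CPM in DMSO and 204, 210 and 250 CPM at 30, 100 and 300 nM. Every picoxystrobin library lay well above both controls, with a log2 fold change of 0.84 after the correction (SE 0.09, adjusted p = 0.00436). Of its 50-base windows 71% also occur in other genes, and its copy Rps3a3, which lies within Pde4d, moved alike (log2 fold change 0.81). Rpl26 measured 36.8 and 35.9 CPM in DMSO against 53.4, 46.9 and 54.4 CPM. Rpl39 rose with concentration, from 68.2 and 74 CPM in DMSO to 100, 112 and 165 CPM. The log2 fold change was 0.81 for each of them (SE 0.10 and 0.17). The pseudogenes Gm14303 and Rps15-ps2, of which Rps29 and Rps15 hold 89.3% and 21.6% of the 50-base windows, rose by 0.85 and 0.84 on the log2 scale. How the counting shared reads between such genes is not given in the sources used here, so single members are uncertain.

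Outside the ribosome, Phlda1, a gene of a pleckstrin homology domain protein induced by growth factors, measured 149 and 159 CPM in DMSO and 201, 208 and 279 CPM with picoxystrobin. Gas1, which encodes a membrane protein of growth arrest that also binds Sonic hedgehog, measured 232 and 280 CPM in DMSO against 315, 336 and 448 CPM. Both were highest at 300 nM. Their log2 fold changes were 0.96 (SE 0.17) and 0.89 (SE 0.18) after the correction. Without the correction the largest rises were those of AC087802.1, Rpl22l1, Bc1 and Hmgn5. Rpl22l1, a paralog of ribosomal protein L22, measured 39.1 and 54.7 CPM in DMSO and 70.6, 89.7 and 122 CPM at 30, 100 and 300 nM. Bc1, a short noncoding RNA of neurons, measured 8.59 and 12.2 CPM in DMSO against 14.5, 19.2 and 28.2 CPM. Hmgn5, which encodes a nucleosome-binding protein, measured 7.18 and 8.35 CPM in DMSO against 13.6, 13.9 and 18 CPM. All 3 stood higher at 300 nM than at 30 nM. Their log2 fold changes went from 1.00, 0.99 and 0.96 to 0.80, 0.70 and 0.69 with the correction, and they were called on both scales.

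**Figure D3:**
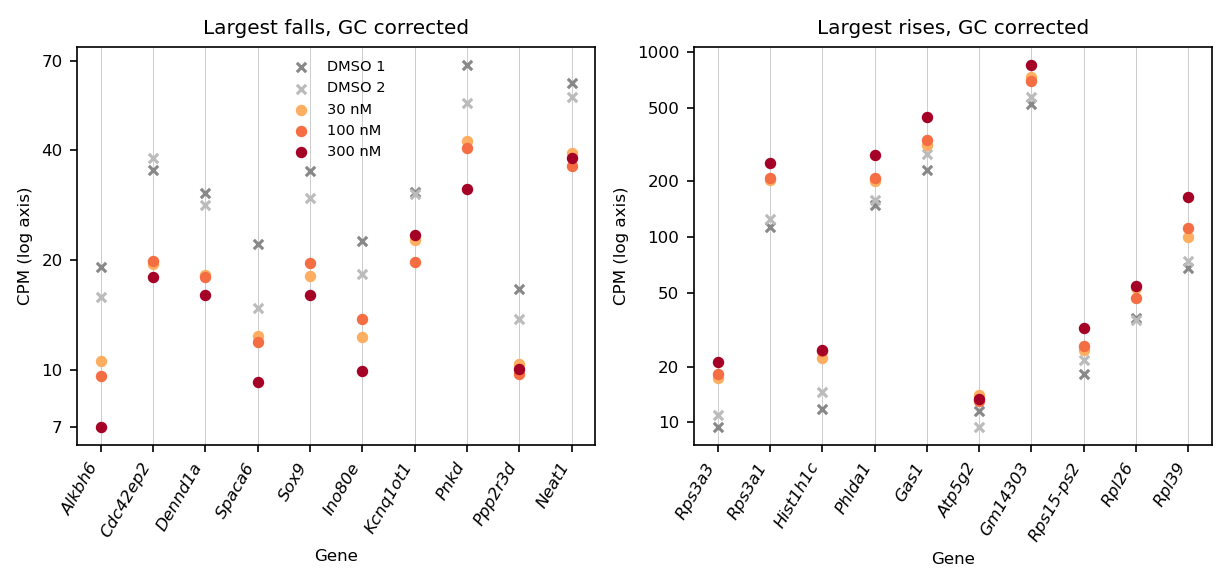
Level in CPM (log axis) in each of the 5 libraries for the 10 genes with the largest falls (left) and the 10 with the largest rises (right) after correction for GC content; the values plotted are not corrected. The genes were chosen for having no overlap on the corrected scale, so the separation seen here is largely part of the choice. The picoxystrobin libraries (circles) lie below both DMSO libraries (crosses) for all genes on the left and above both for all genes on the right.

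The functions that moved were examined with 38 lists of genes. For each, the number of its tested members called in each direction is given, with the median log2 difference from the DMSO mean at 30, 100 and 300 nM. Over all genes tested these medians were close to 0, the farthest being -0.0114. The shares called were 18% higher and 20.3% lower before the correction, and 8.45% and 8.61% after it. Counts in the lists are not given without the first DMSO library, where edgeR called almost no gene of all tested. Those without the second thus show only the milder loss of a control.

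Complex III, the target of picoxystrobin, is built from nuclear subunits and the mitochondrially encoded cytochrome b. All 10 members were tested. Before the correction 4 were higher and 1 lower, and after it 2 were higher and 0 lower. Uqcrb, the subunit next to the ubiquinone-binding site, measured 32.8 and 36.5 CPM in DMSO and 49.1, 58.3 and 67.2 CPM at 30, 100 and 300 nM. It rose in order of concentration, with a log2 fold change of 0.75 before and 0.47 after the correction (SE 0.09, adjusted p = 0.00941). Cyc1, cytochrome c1, measured 140 and 130 CPM in DMSO against 139, 132 and 121 CPM, so that the groups overlapped. The log2 fold change of Cyc1 was -0.05 before the correction (adjusted p = 0.655) and 0.40 after it (adjusted p = 0.00517), with a GC content of 61.42% in its transcript. The catalytic iron-sulfur subunit Uqcrfs1 measured 166 and 155 CPM in DMSO against 179, 185 and 190 CPM, and the hinge subunit Uqcrh 164 and 157 CPM against 193, 196 and 192 CPM. Both lay above the controls, yet neither was called after the correction (adjusted p = 0.0678 and 0.0539). The core subunit Uqcrc2 and Uqcr11 lost their calls too, and Uqcrc1, Uqcrq and Uqcr10 were not called on either scale. Cytochrome b mRNA (mt-Cytb) measured 16520 and 15750 CPM in DMSO and 19130, 17960 and 21620 CPM with picoxystrobin (log2 fold change 0.28 before and -0.03 after the correction, neither called).

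In complex I, which passes electrons from NADH to ubiquinone, 11 of 36 members were higher and 5 lower before the correction, and 11 were higher and 1 lower after it. The medians after the correction were 0.17, 0.11 and 0.15 at 30, 100 and 300 nM. Ndufa6 measured 177 and 209 CPM in DMSO and 268, 268 and 337 CPM with picoxystrobin (log2 fold change 0.80 after the correction, SE 0.13, adjusted p = 0.00713). Ndufa5 measured 24.8 and 25.1 CPM against 34, 31.9 and 36.7 CPM, and stood apart from DMSO in all libraries. Ndufa7, picked out after its values were seen as the only member that fell after the correction, measured 88 and 76.7 CPM in DMSO against 64.2, 63.1 and 58.8 CPM. Without the second DMSO library 7 were higher and 1 lower after the correction, and without that at 100 nM 6 and 1. Members of this list are short (median transcript 1025.5 bases). With length corrected as well, 7 were higher and 5 lower, and the medians were 0.06 at all 3 concentrations, so most of the excess of rises was not there on that scale.

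Of the 12 tested members of complex IV, 5 were higher and 2 lower after the correction. Cox7a2 measured 160 and 174 CPM in DMSO against 234, 226 and 256 CPM (log2 fold change 0.64, SE 0.08, adjusted p = 0.00436), and Cox7a2l, a factor that joins complexes III and IV, 26.3 and 30.4 CPM against 38.9, 42.9 and 37.5 CPM. The members that fell, Cox5a and Cox6b1, were looked up after their values were seen (log2 fold change -0.48 and -0.26). Of the 17 genes of ATP synthase, 7 were higher and 2 lower after the correction, but 2 and 2 with length corrected too. Atp5g2 of the membrane ring measured 11.5 and 9.42 CPM in DMSO and 14, 13.1 and 13.4 CPM with picoxystrobin, and Atp5o of the stalk fell from 121 and 104 CPM to 93.6, 93.2 and 82.1 CPM. Complex IV with length corrected had 4 higher and 3 lower, and complex III 1 higher and 0 lower.

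The mRNAs encoded by the mitochondrial genome rose before the correction, with 5 of the 7 tested members higher and 0 lower. Their medians were 0.27, 0.21 and 0.62 at 30, 100 and 300 nM. The mRNA of the complex I subunit ND4 (mt-Nd4) measured 6924 and 7009 CPM in DMSO and 9325, 8865 and 11620 CPM with picoxystrobin, and that of ND5 (mt-Nd5) 5140 and 5547 CPM against 6899, 6600 and 9169 CPM. All picoxystrobin libraries lay above both controls. These mRNAs are poor in G and C (median 37.1%). After the correction 0 of 7 were called by edgeR, with medians of 0.04, -0.10 and 0.05, and DESeq2 called 0 as well. With length corrected too, 0 were higher and 2 lower, with medians of -0.11, -0.24 and -0.16. The uncorrected calls also went to 0 higher and 0 lower without the second DMSO library.

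Other mitochondrial lists were mixed. Of 21 genes of the tricarboxylic acid cycle and pyruvate entry, 6 were higher and 3 lower after the correction. Citrate synthase (Cs) fell, at 826 and 767 CPM in DMSO and 694, 679 and 634 CPM with picoxystrobin (log2 fold change -0.29, SE 0.06, adjusted p = 0.0174). The succinate dehydrogenase subunit Sdhb, which feeds complex III from complex II, measured 53.9 and 54.4 CPM against 59.8, 61.1 and 60.6 CPM (log2 fold change 0.35, SE 0.07, adjusted p = 0.0107). Of 71 mitochondrial ribosomal proteins 7 were higher and 4 lower, with Mrpl33 at 50.4 and 57.5 CPM in DMSO and 80.3, 77.4 and 104 CPM with picoxystrobin. With length corrected too, 4 of them were higher and 4 lower. Of 17 genes of protein import, 1 was higher, the import pore subunit Tomm7 (54.5 and 63.5 CPM in DMSO against 87, 83.2 and 93.9 CPM).

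Cytosolic ribosomal proteins had the largest share of members called higher after the correction among the lists of 20 or more tested genes. Of 62 tested members, 23 were higher and 7 lower before the correction and 28 were higher and 1 lower after it. The medians after the correction were 0.23, 0.22 and 0.27 at 30, 100 and 300 nM, so the rise was there at 30 nM and changed little with concentration. It was there against either control, with 0.21, 0.18 and 0.18 before the correction against the mean, and at least 0.10 against the second DMSO library. After the correction the medians were 0.29, 0.27 and 0.33 against the first DMSO library and 0.19, 0.16 and 0.20 against the second. On that scale DESeq2 called 26 higher and 1 lower, and edgeR called 18 and 0 without the library at 100 nM. The transcripts are short (median 1191.5 bases), and with length corrected too 17 were higher and 5 lower, with medians of 0.16, 0.14 and 0.15. Rplp0, of the ribosomal stalk and the most abundant member, measured 1623 and 1567 CPM in DMSO against 1700, 1590 and 1414 CPM and was not called (adjusted p = 0.155 after the correction). Rpsa, the only member that fell and looked up after its values were seen, measured 62.3 and 60.7 CPM against 50.7, 45.8 and 42.6 CPM (log2 fold change -0.34).

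Other parts of protein synthesis moved less. Of 61 translation factors, 18 were higher and 8 lower before the correction (5 and 2 without the library at 100 nM) and 7 and 4 after it. Eif4ebp1, the inhibitor of cap-dependent initiation that is a target of ATF4, measured 176 and 197 CPM in DMSO and 111, 143 and 135 CPM with picoxystrobin. It was lowest at 30 nM, and its log2 fold change was -0.56 (SE 0.09, adjusted p = 0.00723). The elongation factor Eef1a1 was not called (adjusted p = 0.421). Of 30 aminoacyl-tRNA synthetases 2 were higher and 1 lower, and the mitochondrial enzymes Lars2 and Yars2 were those that rose. Lars2 measured 187 and 192 CPM in DMSO against 221, 246 and 246 CPM. In the proteasome, 8 of 42 members were higher and 1 lower after the correction. Psmd12 of the regulatory particle measured 87.1 and 98.6 CPM in DMSO against 128, 130 and 134 CPM, and the assembly factor Psmg4 37.3 and 39.1 CPM against 45.5, 46.4 and 42.9 CPM. With length corrected the proteasome had 4 higher and 3 lower.

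By their median, genes of the integrated stress response were low at 30 nM and near the DMSO mean at 100 and 300 nM. Their median was -0.51, -0.03 and 0.05 at 30, 100 and 300 nM before the correction, and -0.41, 0.00 and 0.10 after it. The DMSO libraries differed as well, by a median of 0.15 to either side of their mean before the correction, the first being the lower. Against the first the medians were -0.28, 0.09 and 0.21, and against the second -0.66, -0.23 and -0.11. Before the correction 1 of 26 members was higher and 10 were lower, which became 1 and 3 without the second DMSO library. After it 2 were higher and 0 lower. Atf4, the transcription factor of the response, measured 647 and 675 CPM in DMSO and 534, 629 and 646 CPM with picoxystrobin, and was not called (adjusted p = 0.367). The genes that rose after the correction were Atf3, at 9.38 and 11.9 CPM against 13.7, 13.9 and 17.5 CPM (log2 fold change 0.63, SE 0.16, adjusted p = 0.0267), and Ppp1r15a, the phosphatase subunit that ends the response, at 20.6 and 21.7 CPM against 22, 21.7 and 24.3 CPM.

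From 30 to 300 nM, 24 of the 26 members had a positive slope, against 4775 of all 9696 genes, with a median slope per 10-fold of 0.37 (0.44 after the correction). None was called for its slope by edgeR. The following members were chosen after their values were seen. Slc7a11, the cystine transporter, measured 22 and 34.4 CPM in DMSO and 15.2, 35.6 and 39.5 CPM at 30, 100 and 300 nM (slope 1.32, SE 0.29, adjusted p = 0.102). Cth, of cysteine synthesis, measured 23.5 and 33.3 CPM against 14.9, 26 and 34.5 CPM (slope 1.20, SE 0.21, adjusted p = 0.0762). Atf5, a factor of the mitochondrial stress response, measured 73.8 and 99.9 CPM against 34.2, 57.3 and 66.9 CPM (slope 0.96, SE 0.19, adjusted p = 0.0939). Trib3, Chac1, Psph, Asns and Aldh1l2 had the same order, with the library at 30 nM below both controls and those at 100 and 300 nM within or near their range. The low median was thus that of a single library, at 30 nM. Without that library edgeR still called 1 of the 26 members higher and 8 lower before the correction. After it, 2 were higher and 0 lower.

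**Figure D4:**
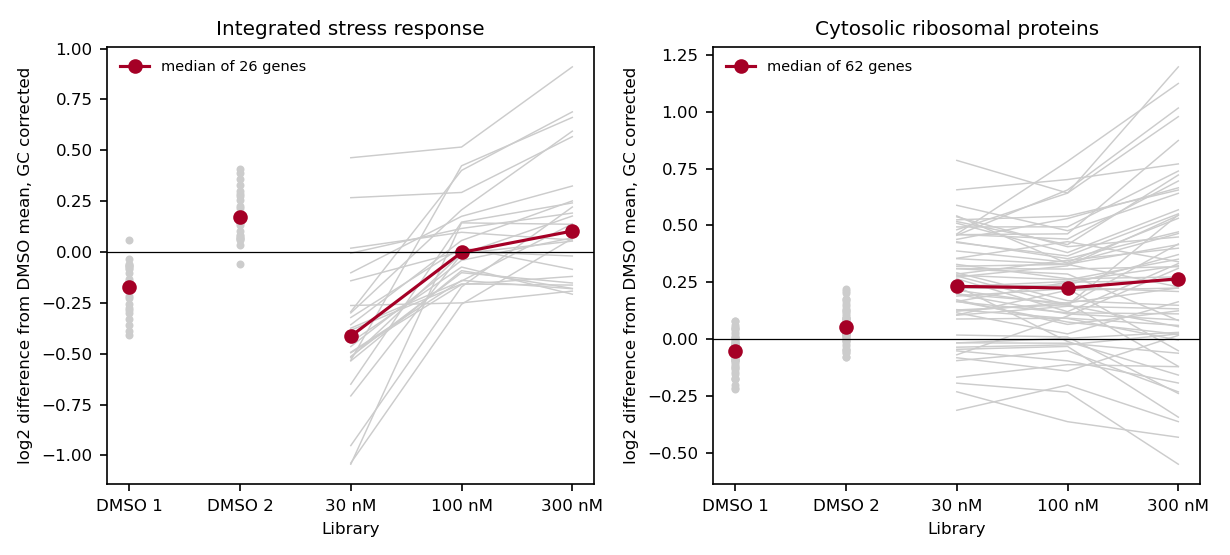
Log2 difference from the DMSO mean after correction for GC content in each library, for the 26 genes of the integrated stress response (left) and the 62 of cytosolic ribosomal proteins (right); grey lines and points are genes, red points the medians. The stress response median runs from -0.41 at 30 nM to 0.10 at 300 nM, and the ribosomal median stays between 0.22 and 0.27.

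Other stress lists had few calls after the correction, to be read beside the 8.45% of all genes called higher and the 8.61% called lower. Of 22 targets of p53, 3 were higher and 2 lower after the correction. Gadd45a, a growth arrest gene, measured 36.7 and 41 CPM in DMSO and 52.7, 60 and 68.8 CPM with picoxystrobin, in order of concentration (log2 fold change 0.67, SE 0.11, adjusted p = 0.00718). Ccng1, cyclin G1, measured 381 and 355 CPM against 532, 493 and 664 CPM, and was called on both scales (log2 fold change 0.61 and 0.34). Of 24 targets of NRF2 and antioxidant enzymes, 0 were higher and 2 lower after the correction. Those were Pgd of the pentose phosphate pathway, at 113 and 96.5 CPM against 89.2, 85.7 and 74 CPM, and mitochondrial thioredoxin Txn2, at 349 and 324 CPM against 254, 260 and 224 CPM. The ferritin chain Fth1 was not called (adjusted p = 0.599). Of 19 chaperones of the endoplasmic reticulum 2 were higher, Creld2 and Dnajb11, and 0 lower. Among 21 chaperones of the cytosol and the mitochondrion 3 were higher and 1 lower. The Hsp70 cochaperone Dnaja1 measured 74.8 and 87.2 CPM against 120, 114 and 156 CPM, and the cochaperone Bag3 fell from 188 and 164 CPM to 117, 108 and 97.4 CPM.

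In cholesterol synthesis, 0 of 24 genes were higher and 4 lower after the correction, with medians of -0.16, -0.09 and -0.06. With length corrected 5 were lower and 0 higher. Mvk, mevalonate kinase, measured 35.1 and 33.1 CPM in DMSO and 21.6, 21.5 and 20.4 CPM with picoxystrobin (log2 fold change -0.39, SE 0.08, adjusted p = 0.0127). Dhcr7, the last enzyme of the pathway, measured 252 and 231 CPM against 170, 176 and 174 CPM (log2 fold change -0.32, SE 0.06, adjusted p = 0.0103). Both were about as low at 30 nM as at 300 nM, and no picoxystrobin library reached the controls. Ebp and Hmgcs1, named after their values were seen, were the other genes that fell. The most abundant member, Msmo1, was not called (adjusted p = 0.387).

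In glycolysis, 0 of 17 genes were higher and 5 lower before the correction, and 2 were higher and 1 lower after it. Ldha, the subunit of lactate dehydrogenase, measured 359 and 389 CPM in DMSO and 457, 420 and 378 CPM, highest at 30 nM (log2 fold change 0.26 after the correction, SE 0.07, adjusted p = 0.0357). Pfkfb3, which makes the activator of phosphofructokinase, measured 25.3 and 24.2 CPM against 17.9, 18.1 and 18.2 CPM (log2 fold change -0.40, SE 0.09, adjusted p = 0.0145). Of 37 genes of the lysosome and its proton pump 2 were higher and 4 lower, among them the cholesterol exporter Npc1, which fell from 116 and 116 CPM to 97.8, 88.2 and 86.1 CPM.

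Among cell cycle genes few were called after the correction. Of 38 genes of DNA replication, 2 were higher and 1 lower, with medians of 0.09, -0.10 and -0.09 at 30, 100 and 300 nM and of 0.09 and -0.09 in the DMSO libraries. Before the correction 32 of the 38 had a negative slope on concentration. The replication factor subunits Gins4 and Rfc4 were those that rose, the former from 21 and 20.6 CPM to 29.8, 27.8 and 30.4 CPM and the latter from 12.1 and 11.3 CPM to 19, 17.3 and 19.3 CPM. Of 35 mitotic genes, 11 were higher and 0 lower before the correction, but 0 and 1 without the second DMSO library, and 1 and 0 after the correction. Their medians after it were 0.24, -0.01 and 0.02, while the DMSO libraries lay at 0.15 and -0.15, and 28 of the 35 had a negative slope before it. The library at 30 nM was thus the highest in both lists of the exposed ones, and the distance between the controls was of the same size. The gene that rose, Ube2c of the anaphase-promoting machinery, measured 174 and 156 CPM against 206, 173 and 191 CPM, so that the library at 100 nM overlapped the controls. Mki67 was not called (adjusted p = 0.898). Of 23 regulators of G1, 1 was higher (Cdkn2c) and 1 lower (Cdk6).

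Chromatin regulators fell more often than they rose. Of 49 tested members, 6 were higher and 15 lower before the correction and 3 were higher and 13 lower after it, with medians of -0.07, -0.08 and -0.20. Without the library at 100 nM 2 were higher and 7 lower after the correction. The H3K4 methyltransferase gene Kmt2a measured 307 and 270 CPM in DMSO and 219, 203 and 170 CPM with picoxystrobin, lower with each step in concentration (log2 fold change -0.48, SE 0.09, adjusted p = 0.00929). Kmt2c of the same family measured 126 and 130 CPM against 104, 97.8 and 93.9 CPM (log2 fold change -0.44, SE 0.06, adjusted p = 0.00536). Of the others, Kmt2d, Kmt2e, the acetyltransferases Crebbp and Ep300 fell by 0.39, 0.41, 0.39 and 0.27 on the log2 scale, and the deacetylase Hdac2 and the demethylase Kdm1a rose by 0.27 and 0.31 (named after their values were seen). These are long transcripts, with a median of 8350 bases. With length corrected, 4 were higher and 4 lower and the medians were 0.02, 0.00 and -0.09, so the excess of falls was not there on that scale. Of 9 replacement and linker-like histone variants 3 were higher and 0 lower after the correction, with H1f0 at 305 and 307 CPM in DMSO and 323, 349 and 344 CPM with picoxystrobin. They numbered 2 and 0 with length corrected.

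Zinc finger genes named Zfp lost most of their rises with the correction. Of 214 tested, 57 were higher and 41 lower before it, beside 18% and 20.3% of all genes. After it 5 were higher and 21 lower, beside 8.45% and 8.61%. The falls were thus near the share of all genes on both scales. After the correction the falls numbered 9 without the library at 100 nM, 10 without the second DMSO library, 13 without that at 300 nM and 13 with DESeq2. The rises before it numbered 27 without the library at 100 nM. Their transcripts are poor in G and C (median 43.6%), and the medians went from 0.03, 0.10 and 0.15 to -0.06, -0.03 and -0.06. Zfp574 fell on both scales, from 34.2 and 28.1 CPM in DMSO to 18.9, 17.1 and 13.9 CPM. Zfp119b, which shares sequence with 18 other genes, rose from 7.36 and 7.88 CPM to 11.1, 12.1 and 18.1 CPM.

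Splicing factors and hnRNPs also lost rises with the correction. Before it 21 of 49 were higher and 5 lower, beside 18% and 20.3% of all genes, with fewer rises without the second DMSO library. After it 8 were higher and 8 lower, both above the 8.45% and 8.61% of all genes. Srsf5 fell from 105 and 114 CPM to 87.7, 87 and 84.1 CPM (log2 fold change -0.62, SE 0.08, adjusted p = 0.00436), and Hnrnpa0 rose from 247 and 287 CPM to 326, 333 and 349 CPM (log2 fold change 0.60, SE 0.10, adjusted p = 0.00642). Of 24 subunits of the RNA polymerases, 5 were higher and 2 lower. Polr2a, the largest subunit of RNA polymerase II, measured 470 and 386 CPM in DMSO and 342, 315 and 272 CPM with picoxystrobin, below both controls at every concentration (log2 fold change -0.32, SE 0.09, adjusted p = 0.0316). The small subunit Polr2h rose from 14.3 and 15.4 CPM to 21, 17.4 and 18.5 CPM. Of 13 nuclear and snoRNA-host noncoding RNAs, 4 were higher and 3 lower, and Malat1, the nuclear speckle RNA, measured 520 and 516 CPM against 499, 457 and 571 CPM, which overlapped (log2 fold change -0.25 after the correction, adjusted p = 0.0353).

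In the centrosome and cilium list, 21 of 55 genes were higher and 4 lower before the correction and 6 and 1 after it. Without the second DMSO library, or without that at 100 nM, the uncorrected counts were 11 and 4. Cep19 measured 21.5 and 19.9 CPM in DMSO against 29.8, 30.4 and 27.6 CPM, and the ciliary transport gene Ift43 10.2 and 8.83 CPM against 13.1, 11.6 and 12 CPM. Of 31 tubulin and actin cytoskeleton genes, 3 were higher and 10 lower before the correction (2 and 3 without the library at 100 nM) and 2 and 1 after it. The actin-binding protein Pfn2 was among those that rose, at 22.6 and 22.6 CPM against 30.2, 29.3 and 32.3 CPM. In vesicle traffic 8 of 97 genes were higher and 8 lower after the correction, which is near the 8.45% and 8.61% of all genes.

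Collagens and other matrix genes fell before the correction (2 of 45 higher, 16 lower), and after it 5 were higher and 4 lower. With length corrected too, 6 were higher and 0 lower, with medians of 0.04, 0.09 and 0.18. Their transcripts are rich in G and C, with a median of 53%. Col16a1 measured 20.7 and 21.3 CPM in DMSO and 26.7, 22 and 26.7 CPM (log2 fold change 0.71 after the correction, SE 0.13, adjusted p = 0.00899). Fibronectin (Fn1), named after its values were seen, fell on both scales, from 2709 and 2995 CPM to 2120, 2066 and 1957 CPM (log2 fold change -0.29 after the correction). The falls of this list rested in part on the second DMSO library, without which 3 were higher and 6 lower before the correction.

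Of 13 tested genes of the Notch pathway, 1 was higher and 4 lower after the correction, and 1 and 1 without the second DMSO library. Beside the receptor Notch1, the falls included those of the coactivator Maml1 and of Ncstn, which acts in the cleavage of the receptor (log2 fold change -0.30 and -0.27), both named after their values were seen. Hes1, a repressor induced by Notch, moved the other way, at 46.1 and 47.7 CPM in DMSO and 55.8, 57 and 65.8 CPM with picoxystrobin (log2 fold change 0.41, SE 0.09, adjusted p = 0.0158). Transcripts of this list are long (median 5528 bases). Its medians at 30, 100 and 300 nM were -0.05, -0.10 and -0.13 after the correction. With length corrected too they were 0.06, -0.01 and -0.05, so most of the fall of the list was not there on that scale.

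Immediate early genes, which respond within minutes to growth factors, had medians of -0.05, 0.05 and 0.30 after the correction, with 2 higher and 2 lower of the 18 members that have a GC content. Klf10, a repressor induced by TGF-β, fell from 52.8 and 54.7 CPM to 40.3, 42.4 and 37.1 CPM (log2 fold change -0.51, SE 0.08, adjusted p = 0.00579). Ier3 measured 50.5 and 48.8 CPM in DMSO against 55, 52.4 and 55.5 CPM (log2 fold change 0.36 after the correction, adjusted p = 0.0131). Of 14 clock genes 0 were higher and 1 lower. That was Nr1d1, the repressor REV-ERBα, at 57 and 56.5 CPM against 40.8, 34.1 and 35.4 CPM. Its gene overlaps Thra on the opposite strand.

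Thyroid hormone signalling was given a list of receptors, partners and targets, of which 15 of 20 were tested. Before the correction 0 were higher and 6 lower, and after it 0 were higher and 1 lower. The latter was the coactivator Ncoa3 (50 and 48.5 CPM in DMSO against 39.1, 41.6 and 35.3 CPM). Transcripts of this list are long (median 5397 bases). Its medians at 30, 100 and 300 nM were -0.09, -0.10 and -0.15 after the correction. With length corrected too they were -0.02, -0.002 and -0.07. Thra, the gene of TRα1, measured 78.3 and 68.5 CPM in DMSO and 64.4, 58.5 and 52.1 CPM at 30, 100 and 300 nM. It went down in order of concentration before the correction (log2 fold change -0.33, SE 0.10, adjusted p = 0.0318), but its transcript is rich in G and C (59.83%), and after it the log2 fold change was 0.07 (adjusted p = 0.46). Reads of the TRα1 added to the cells and of the gene itself cannot be told apart. Klf9, a target of T3, measured 27.2 and 30.7 CPM in DMSO and 28.3, 28 and 29.5 CPM and was not called on either scale (adjusted p = 0.88 and 0.514). Hr, the other classical target, was under the level for testing, with 67 and 71 counts in DMSO and 42, 58 and 38 counts with picoxystrobin, or 4.14 and 4.19 CPM against 2.82, 3.19 and 2.26 CPM. Hprt, a common reference gene of quantitative PCR, measured 148 and 170 CPM in DMSO and 193, 212 and 283 CPM with picoxystrobin. It was highest at 300 nM and was called before the correction (log2 fold change 0.53, SE 0.14, adjusted p = 0.0212) but not after it (0.24, adjusted p = 0.0977).

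**Figure D5:**
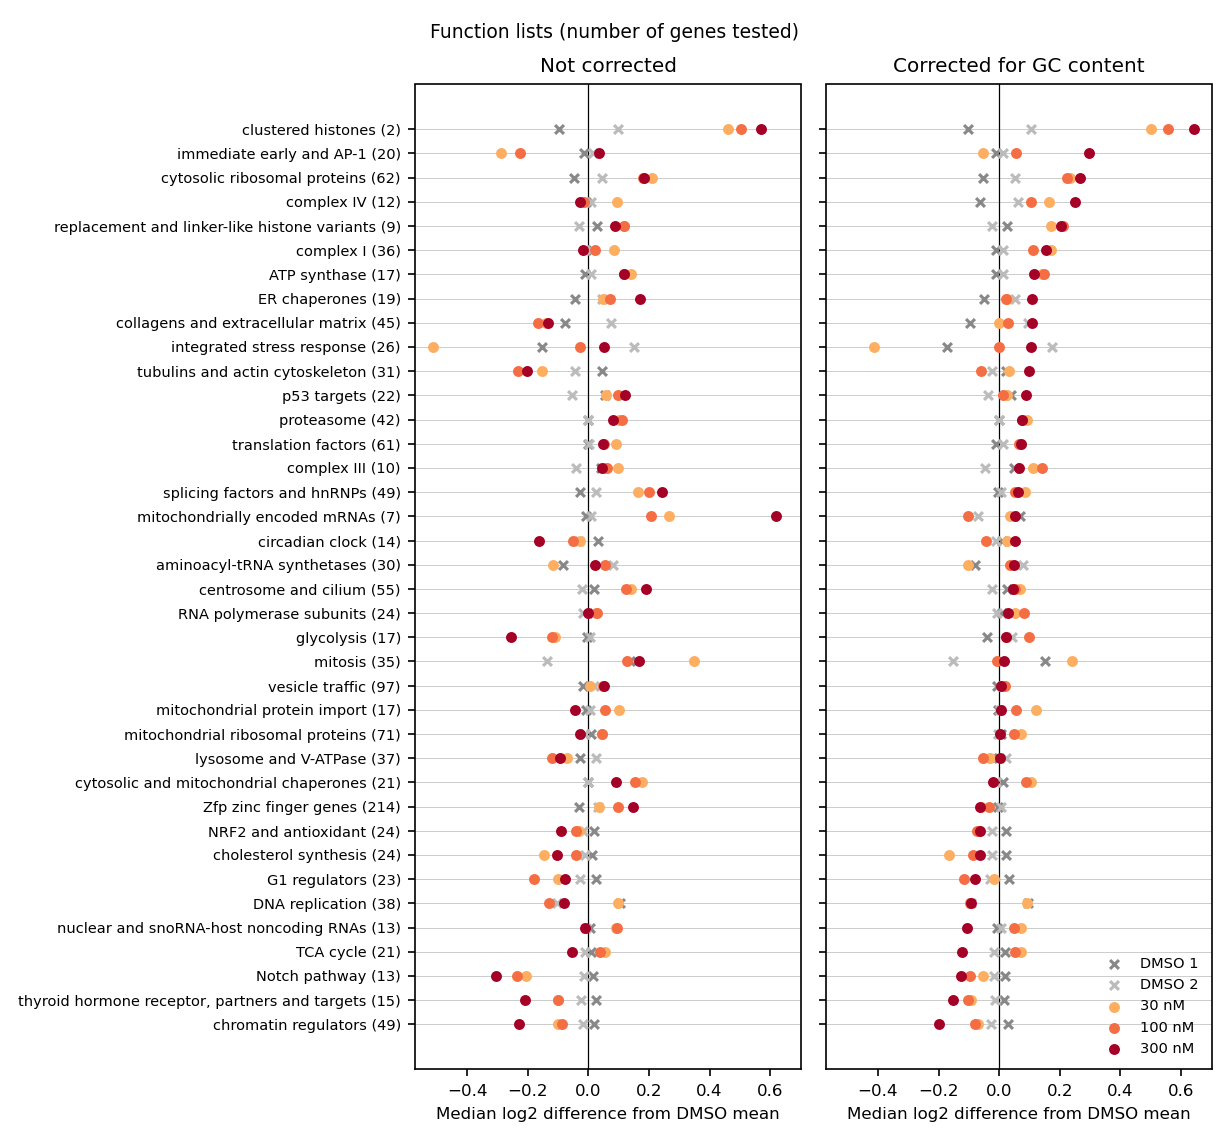
Median log2 difference from the DMSO mean in each library for the 38 function lists (number of tested genes in brackets), before (left) and after (right) correction for GC content, in order of the corrected median at 300 nM. Mitochondrially encoded mRNAs stand at 0.27, 0.21 and 0.62 on the left and at 0.04, -0.10 and 0.05 on the right, while cytosolic ribosomal proteins stay at 0.18 or more in both.

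The number of genes called for a change with concentration depended on the libraries in the fit. With all 5, the slope on log10 concentration was called for 3 genes upward (0.0309%) and 1 downward (0.0103%), with 1735 genes at an unadjusted p under 0.05. With the correction the same numbers were called, 3 (0.0311%) and 1 (0.0104%), with 1095 genes at an unadjusted p under 0.05. Before the correction the calls numbered 953 and 900 without the first or the second DMSO library, 229 without that at 100 nM, and 321 with concentration on a linear scale in nM. After it they numbered 383 and 386 without a DMSO library and 1 without that at 100 nM. Tpt1, which encodes the translationally controlled tumour protein, had the steepest slope. It measured 324 and 365 CPM in DMSO and 95.6, 137 and 245 CPM at 30, 100 and 300 nM. The gene was thus lowest at 30 nM and climbed back toward the controls, with a slope per 10-fold of 1.36 (SE 0.12, adjusted p = 0.000253), or 1.47 after the correction (adjusted p = 0.000184). Of its 50-base windows 42% also occur in the pseudogene Tpt1-ps3.

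Ccnc, cyclin C of the Mediator kinase module, measured 57.5 and 61.4 CPM in DMSO and 62.9, 78.2 and 114 CPM at 30, 100 and 300 nM. Its slope was 0.85 (SE 0.12, adjusted p = 0.0106), but it was not called after the correction (adjusted p = 0.0692). Gm15421, a transcribed pseudogene that shares 41.4% of its windows with Rpl22l1 and lies within Orc5, measured 84.6 and 109 CPM against 125, 167 and 236 CPM, and was called on both scales (adjusted p = 0.0233 and 0.0442). Rpl39, given above, was called after the correction, with a slope of 0.72 (adjusted p = 0.0442). The gene that went down with concentration was Gm9625, a processed pseudogene, at 264 and 248 CPM in DMSO and 415, 280 and 223 CPM. It was high at 30 nM and below the controls at 300 nM, with a slope of -0.90 (adjusted p = 0.00182), or -0.75 after the correction (adjusted p = 0.00681). Without the library at 30 nM or without that at 300 nM, 1 of the 4 genes called before the correction was called again, and 0 genes were called after it.

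Picoxystrobin was compared directly with pyraclostrobin and trifloxystrobin, at the matched concentrations of 30, 100 and 300 nM. Picoxystrobin carries the methoxyacrylate group of the natural strobilurins, where pyraclostrobin has a methoxycarbamate and trifloxystrobin a methoxyiminoacetate, and their side chains differ as well. The test used 9 libraries and no DMSO. Before the correction, picoxystrobin was higher in 836 of 9728 genes (8.59%) and lower in 858 (8.82%). After it, edgeR called 0 genes in either direction (0%), with 1596 at an unadjusted p under 0.05, and DESeq2 called 103 higher and 38 lower. The call before the correction rested on single libraries: edgeR called 0 genes when picoxystrobin at 100 or 300 nM, pyraclostrobin at 100 nM or trifloxystrobin at 300 nM was left out.

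Rps3a1 was 0.43 higher on the log2 scale with picoxystrobin than with the others (95% interval 0.26 to 0.60, adjusted p = 0.0255), and 0.41 higher after the correction (0.25 to 0.57, adjusted p = 0.126). Uqcrb was 0.42 higher (0.21 to 0.63, adjusted p = 0.0268) and 0.20 after the correction (0.03 to 0.37, adjusted p = 0.245). The log2 difference of Notch1 was -0.53 (-0.83 to -0.22, adjusted p = 0.0331) and -0.30 after the correction (-0.58 to -0.02, adjusted p = 0.273). Atf4 did not differ beyond its error, with a difference of 0.20 after the correction and an interval from -0.36 to 0.76. Over the list of cytosolic ribosomal proteins, 9 members were higher and 1 lower with picoxystrobin before the correction, and the median difference after it was 0.10. For the integrated stress response 0 were higher and 1 lower, with a median of 0.12 after the correction. Rps3a1, Uqcrb and Notch1 had already differed from DMSO in the same picoxystrobin libraries, so their direction here was partly fixed in advance. The intervals are for single genes and are not adjusted for the number of genes tested. Misses of the threshold in these 9 libraries do not show that the compounds act alike.

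The libraries were checked against marker genes. Nes, Vim and Sox2, of neural progenitors, were present, and the 13 progenitor markers summed to 3490 to 3530 CPM in DMSO and 3130 to 3410 CPM with picoxystrobin, with Hes5 at 0 counts. Of 15 neuronal markers 13 were under 1 CPM, and their sum was 157 to 160 CPM in DMSO and 148 to 161 CPM with picoxystrobin. The 10 fibroblast and mesenchymal markers summed to 7890 to 8890 CPM in DMSO and 7170 to 7430 CPM. Of these Col1a1 was lower with picoxystrobin (4150 and 4750 CPM in DMSO against 3230, 3300 and 3130 CPM) and Pdgfrb too, while Col3a1 (2210 and 2590 CPM against 2590, 2690 and 2740 CPM) and Twist1 were not. The 8 astrocyte markers summed to 383 to 385 CPM in DMSO and 342 to 370 CPM, and the 10 of the oligodendrocyte lineage to 1460 to 1510 CPM and 1430 to 1550 CPM. Of 11 markers of microglia and macrophages 5 were at 0 counts, and the sums were 8.91 to 10.3 CPM and 8.63 to 9.88 CPM. Endothelial markers summed to 10.5 to 10.9 CPM and 8.22 to 9.29 CPM. The part of these shifts in the results was not tested, and in bulk RNA fewer cells of a type and less RNA per cell cannot be told apart.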

How the data were processed

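Total RNA of C17.2α cells was sequenced on a NextSeq500 after preparation with the SENSE kit of Lexogen. The counts deposited by the authors are raw reads per gene symbol from htseq-count, 1 table per library, and the submitters' notes name Bowtie2 2.3.2.2 and mm10. The annotation and the strand setting of the counting are not given in the sources used here. Reads of overlapping genes may not have been separated.

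Genes averaging over 10 CPM in the 5 libraries were tested with edgeR 4.0.16 (quasi-likelihood, TMM) in R 4.3.3, with Benjamini-Hochberg adjustment over all of them and a threshold of 0.05. SE was taken as the log2 fold change divided by the root of F. Of 54658 symbols, 54092 were found in GENCODE M21, and 9661 tested genes (99.64%) had a GC content. For the correction, log2 CPM (prior count 2) minus the gene's mean was fitted in each library by a natural spline (4 degrees of freedom) on GC content, and the fit entered as an offset. CPM values are given before it. The slope is per 10-fold concentration among exposed libraries. DESeq2 1.42.0, other filters and left-out libraries were alternatives. The scripts were tested on simulated data.

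Genes were named as the 10 largest falls and rises with no overlap on each scale, the strongest slopes, in each list the most abundant member and up to 2 called members, and complex III, Thra, Klf9, Hr and Hprt. Members and lists were chosen with earlier results of these data known. The result of 1 gene is not reported here.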

Additional observations from a re-analysis of the deposited data

How the results depend on the processing

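For picoxystrobin against DMSO, leaving out 1 library gave 0 to 3767 genes before and 1 to 1290 after correction for GC content, and adding 1000 nM gave 0 and 0. A model of 15 libraries, all but picoxystrobin at 1000 nM, called 671 genes after the correction. In it the counts of the second DMSO library entered again under the azoxystrobin label. DESeq2 called 3340 and 1269, and other scalings and filters stayed within 1.5 times of the count reported. For the slope, the calls numbered 321 on a linear scale in nM, 7 with genes over 1 CPM and 5 to 953 with a library left out before the correction, and 19 with genes over 1 CPM, 2 with length corrected and 0 to 386 with a library left out after it. Against the other compounds, leaving out 1 library gave 0 to 2242 genes before the correction and 0 to 1 after it, where DESeq2 called 141 and a model without concentration 21. In a fit with 1 DMSO library, that library is assumed to vary like the others. Of the values of named genes that were called, 0 reversed under any alternative. This was largely fixed in advance, since the alternatives reuse these libraries and the largest changes were chosen for having no overlap. Counts of list members under left-out libraries, DESeq2 and length correction, and list medians against each DMSO library, were chosen after seeing the data. No paired analysis was possible because the DMSO and picoxystrobin libraries share no pairing in their labels. At 1 library per concentration, a difference between concentrations has no replicate check.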
